A study of Equus caballus with 2 samples.

Results

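The region described here is the window of chromosome 4 from position 58000001 to 59000000, followed CpG by CpG in 1 equine sarcoid and 1 sample of tumour-distant skin, both from horse 1. The sarcoid library was made from tumour tissue and the skin library from skin away from the tumour, the control; no treatment is named for either. Sarcoids are skin tumours of horses that arise from fibroblasts, and they are linked to infection with bovine papillomavirus. Methylation was read by reduced representation bisulfite sequencing (RRBS), in which the enzyme MspI cuts DNA at CCGG, short fragments are kept, and bisulfite turns unmethylated cytosines into bases read as T. The members are the CpGs of the window with at least 10 reads in both libraries after the strands of a CpG were summed. They numbered 885 of 877053 such CpGs in the genome. The window was chosen by its measured levels, namely the higher mean in the sarcoid, so all differences between sarcoid and skin within it are descriptions, without a test.

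Methylation of the cytosine of a CpG is copied to the new strand when a cell divides, so a level is carried through a cell lineage. In mammals most isolated CpGs are methylated, whereas CpG-dense stretches, many of them at the start of genes, are usually kept free of methylation. Gain of methylation in such stretches is a common feature of tumours, and dense methylation at a gene's start goes with silencing of that gene. The level of a CpG is the percent of its reads that show methylation. In bulk tissue a change in the share of cells of one type and a change within cells cannot be told apart from such a level. The sources used here give no genome build, so positions stand as the files have them, no gene is placed on them and no sequence is printed.

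The libraries held 35970547 reads over cytosines in sarcoid and 48650606 in skin, with median coverages of 24 and 30 reads per CpG. Member CpGs had a median of 32 reads in sarcoid (range 10 to 138) and 49 in skin (10 to 192). With 1 library for each tissue, no difference below can be set against a spread between animals. Copies of molecules made by PCR are not independent, and intervals cover counting error only.

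Most CpGs of the window had low levels in both libraries, and a part of them had higher levels in sarcoid. The mean level of the 885 members was 25.5% in sarcoid and 16.7% in skin, a difference of 8.74 points (95% interval from counting error, with CpGs taken as independent, 8.20 to 9.28). Close CpGs often share reads, so this interval is too narrow even for counting error. The median CpG had 8.33% in sarcoid and 6.67% in skin, and the median of the differences was 0 points. Levels were higher in sarcoid at 430 members, lower at 333 and equal at 122. The mean difference therefore came from a part of the members, and the differences had a standard deviation of 24.8 points over CpGs. Of the members, 60.7% in sarcoid and 71.4% in skin were at most 20% methylated, and 9.27% in sarcoid and 3.84% in skin were at least 80% methylated. No methylated read was found at 257 members in sarcoid and at 186 in skin.

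A CpG was called when Fisher's exact test between the reads of these 2 libraries, adjusted over all 877053 CpGs, gave q below 0.01 and the levels were at least 25 points apart. By this rule 136 members (15.4%) were higher in sarcoid, against 0.954% of CpGs in the genome, and 33 (3.73%) were lower, against 1.89%. Whatever the q, 206 members were at least 25 points higher (23.3%, background 4.5%) and 53 at least 25 points lower (5.99%, background 7.25%). The same contrast chose the window, so nothing is read from these shares. Among 632 members that were at most 20% methylated in skin, 90 (14.2%) were called higher, with a background of 0.589% of such CpGs in the genome. In sarcoid, 156 of the 632 had levels between 20% and 80%, 8 had at least 80%, and 468 stayed at or below 20%. The 219 members of intermediate level in skin went both ways, with 46 (21.005%) called higher and 32 (14.6%) lower, beside 2.30% and 3.12% of such CpGs in the rest of the genome. Only 34 members were at least 80% methylated in skin, and 1 of them (2.94%) was called lower, beside 3.15% in the rest of the genome.

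Members were crowded into a small part of the window. Between 58120001 and 58280000, 16% of its length, lay 782 members (88.4%), all 136 CpGs called higher and 32 of the 33 called lower. The mean there was 23.4% in sarcoid and 13.3% in skin, against 40.9% in sarcoid and 43.0% in skin over the 103 members elsewhere in the window. Outside this dense part the difference was -2.12 points. Among those 103 members, 0 were called higher and 1 lower, beside 0.954% and 1.89% of CpGs in the genome. A 5 kb step there, from 58655001, was 38.2 points higher in sarcoid, from 5 CpGs of which 0 were called.

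**Figure D1:**
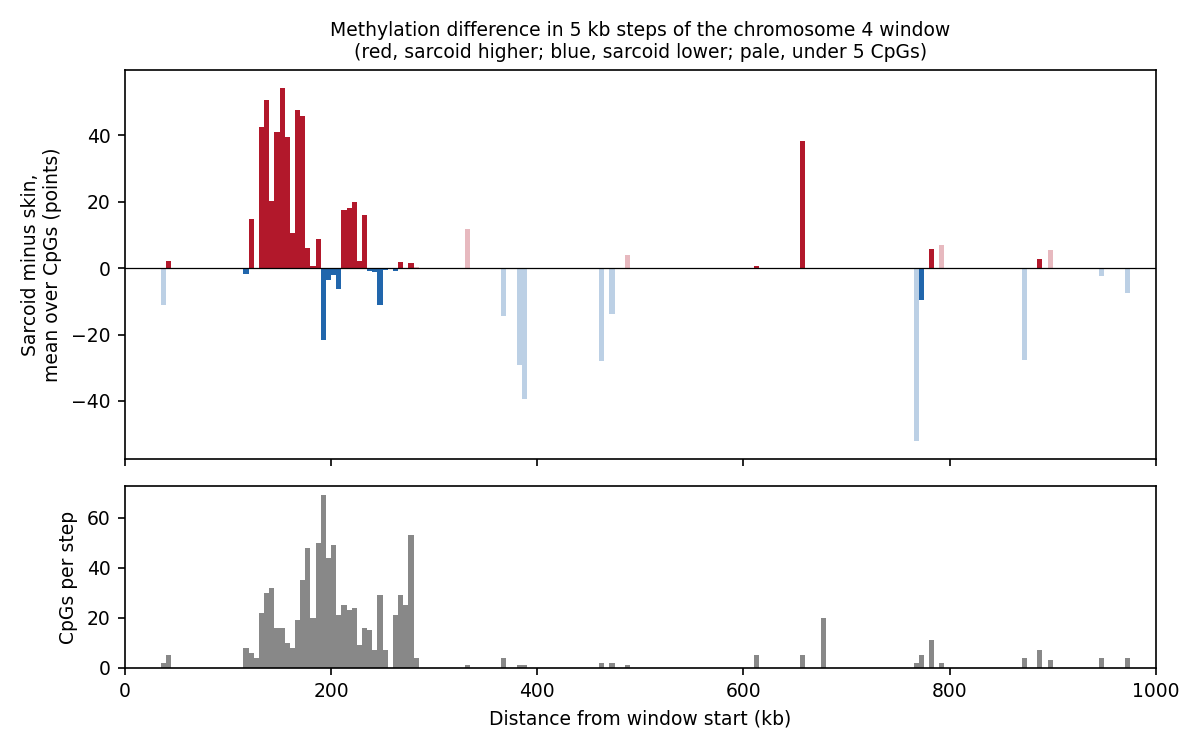
Mean difference in methylation (sarcoid minus skin, percentage points) in 5 kb steps along the window (above) and the number of member CpGs per step (below), against distance from the window start in kb. Higher steps and lower steps follow each other in blocks within the dense part, and the steps outside it, pale where they hold under 5 CpGs, are sparse and of either sign.

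In steps of 5 kb with at least 5 members, the mean was higher in sarcoid in 26 of 38 steps and lower in 12, where 41.1% of steps in the genome were higher. Differences ran from -21.5 to 54.3 points, and 13 steps were at least 15 points higher, against 4.25% of steps in the genome. Neighbouring steps of the same sign, with at most 1 unmeasured step between them, formed 5 stretches of at least 3 steps, which together make up the dense part. In order along the chromosome their means were higher, lower, higher, lower and higher in sarcoid, the last by only 1.24 points. The stretches were laid out from the measured values and carry no test.

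The first stretch, from 58120001 to 58190000, held 118 of the 136 CpGs called higher and 0 called lower. Its 316 members averaged 41.0% in sarcoid and 14.3% in skin, a difference of 26.8 points, and 243 members were higher, 46 lower and 27 equal. In skin 225 of the 316 were at most 20% methylated, and in sarcoid 108 were. At least 80% methylation was reached by 46 members in sarcoid and by 1 in skin. All 13 measured steps of this stretch had a higher mean in sarcoid, by 0.637 to 54.3 points. From 58130001 to 58160000, 6 neighbouring steps with 126 CpGs were each at least 15 points higher. This was the longest series of higher steps among 53258 steps of the genome, in a window chosen for its higher mean. The next, on chromosome 2 from 40620001 to 40645000, had 4 steps with 28 CpGs. Series of lower steps were as long, with 6 steps and 125 CpGs on chromosome 26 from 41055001 to 41090000.

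The second stretch, from 58190001 to 58210000, was lower in sarcoid. Its 183 members averaged 3.96% in sarcoid and 14.2% in skin, 137 of them were lower and 20 higher, and 28 were called lower and 0 higher. Here 178 of the 183 CpGs were at most 20% methylated in sarcoid, and 133 were in skin. The mean in skin was close to that of the first stretch, while the sarcoid mean was the lowest of the 5 stretches. The third stretch, from 58210001 to 58235000, was higher again, with 29.8% in sarcoid and 13.2% in skin over 97 members, 16 called higher and 0 lower. In the fourth, from 58235001 to 58265000, 79 members averaged 12.5% in sarcoid and 17.1% in skin, and 4 were called lower. The fifth, from 58265001 to 58280000, held 107 members at 7.10% in sarcoid and 5.86% in skin, a difference of 1.24 points, with 2 called higher. Of the 107, 44 were higher in sarcoid, 49 lower and 14 equal. Their median was 2.56% in sarcoid and 3.03% in skin, against the direction of the mean.

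**Figure D2:**
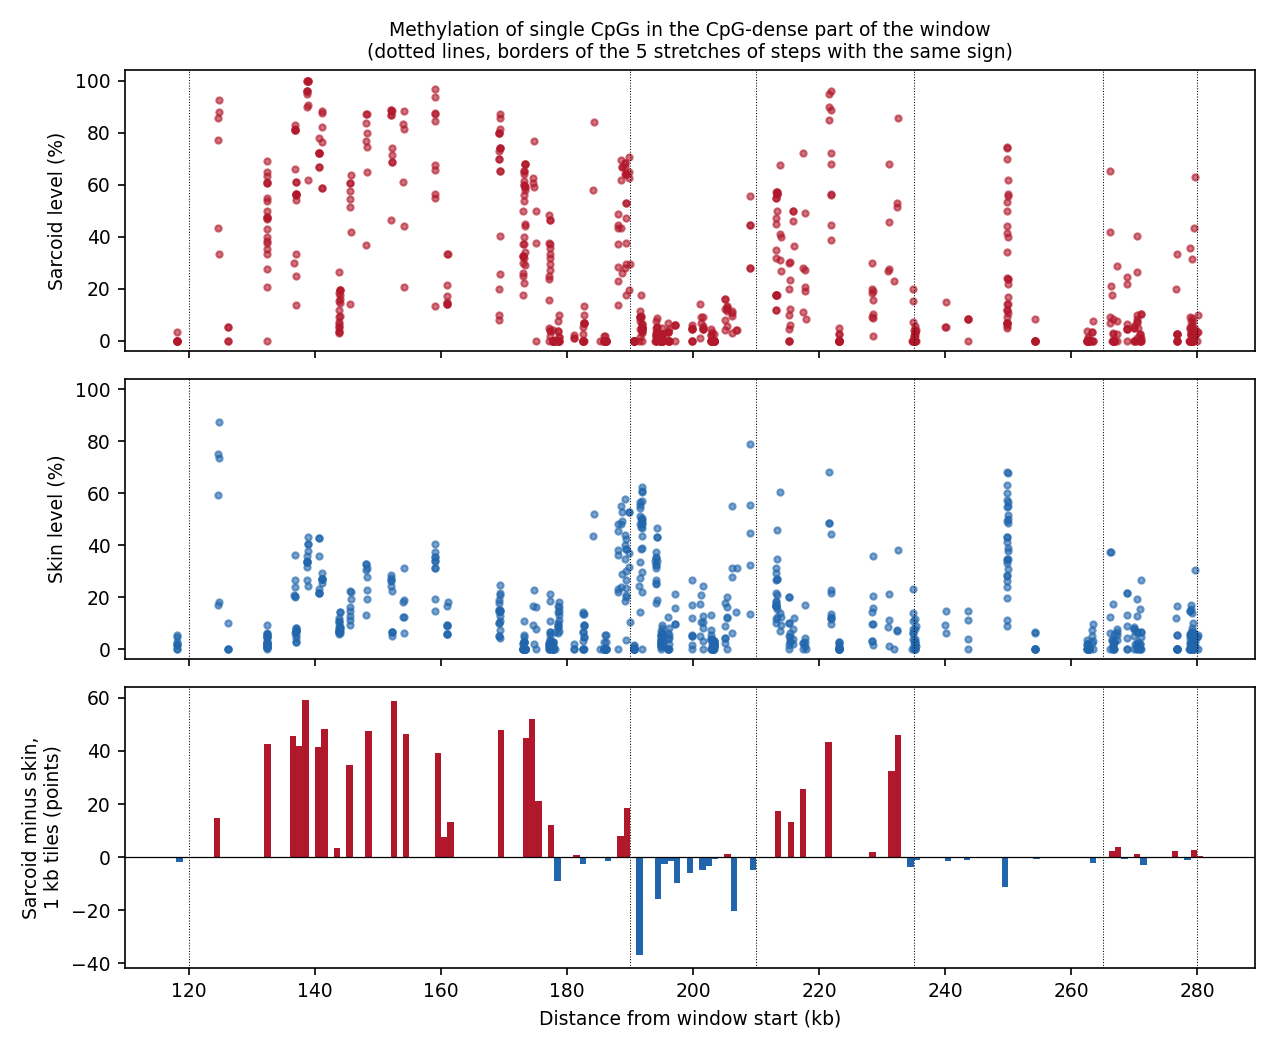
Methylation level of each member CpG in sarcoid (top) and skin (middle), in percent, and mean difference of 1 kb tiles with at least 3 members (bottom, percentage points), against distance from the window start in kb. Dotted lines bound the 5 stretches; in the first stretch 46 CpGs reach at least 80% in sarcoid and 1 does in skin.

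Read depth differed between the stretches. Sarcoid over skin reads of the members, as a log2 ratio, came to -0.55 in the first stretch, -0.72 in the second, -1.15 in the third, -0.70 in the fourth and -0.25 in the fifth, beside -0.43 over the rest of the genome. Sarcoid coverage was thus lowest relative to skin in the third stretch, with a median of 20 reads in sarcoid and 54 in skin. Without that stretch the window differed by 7.77 points. Depth also moved with the difference between single runs of CpGs, defined next: 9 of the 10 longer runs that were at least 15 points higher lay below the depth ratio of the rest of the genome, and so did 12 of the other 19. Across these 29 runs, which share both libraries, Pearson's r of difference and log2 depth ratio was -0.398, given as a description. The part of depth in the differences was not tested.

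Members no more than 1000 bp from their neighbour were joined into runs, 69 in all, of which 29 held at least 10 members and 697 members together. Of these 29, 10 were at least 15 points higher in sarcoid, 0 were at least 15 points lower, and 16 had a mean of at most 20% in both libraries. The 0 depends on the joining distance: with neighbours within 500 bp, a piece of 26 CpGs differed by -36.9 points and one of 16 CpGs by -29.4 points. Over all 69 runs, short ones included, 18 were at least 15 points higher and 6 at least 15 points lower. The 8 runs with the largest gain and the 4 with the largest loss are described. Because CpGs of a run share reads, each run's Wilson 95% interval was set as for 1 CpG with the median coverage of the run.

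The run from 58138796 to 58138858 had the largest gain. Its 12 CpGs within 63 bp averaged 93.8% in sarcoid (interval 75.4 to 98.7; CpGs 61.9 to 100%) and 34.5% in skin (23.3 to 47.8; CpGs 24.3 to 43.2%), a difference of 59.3 points. Every one of the 12 was higher in sarcoid and 11 were called. Nearly as large a gain, 58.9 points, was found from 58152097 to 58152242, where 10 CpGs averaged 76.9% in sarcoid (60.7 to 87.7) and 17.9% in skin (10.7 to 28.5). All 10 were higher. In both runs the lowest CpG of the sarcoid lay above the highest CpG of the skin.

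From 58169184 to 58169403, 19 CpGs averaged 61.3% in sarcoid (42.3 to 77.4) and 13.5% in skin (6.49 to 26.1). CpGs of this run were unlike each other in sarcoid, with levels of 8% to 87.1%, while in skin they spread over 4.17% to 24.5%. The run from 58136759 to 58137011 had 57.3% in sarcoid (38.1 to 74.6) and 12.2% in skin (6.49 to 21.8) over 18 CpGs, all of them higher. From 58140597 to 58141153 the mean over 13 CpGs was 73.2% in sarcoid (50.1 to 88.2) and 28.6% in skin (11.7 to 54.7). That last run had the least coverage in skin of the 29, a median of 14 reads, its intervals overlap, and 3 of its CpGs were called.

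In a pair of runs skin was almost unmethylated and sarcoid was at intermediate levels. The one with more CpGs, from 58173038 to 58173384, averaged 46.2% in sarcoid (31.8 to 61.3; CpGs 17.5 to 68%) and 1.23% in skin (0.121 to 11.3; CpGs 0 to 10.8%). All 31 CpGs were higher in sarcoid and 26 were called, and depth was close in the libraries, with medians of 40 reads in sarcoid and 38 in skin. From 58132323 to 58132474 the 22 CpGs averaged 45.7% in sarcoid (30.1 to 62.1) and 3.06% in skin (0.999 to 8.98), with 21 higher and 18 called. Here coverage was uneven, with medians of 33.5 reads in sarcoid and 89.5 in skin. The last of the 8, from 58221571 to 58221934 in the third stretch, averaged 71.9% in sarcoid (49.97 to 86.7) and 28.4% in skin (18.9 to 40.2) over 11 CpGs, all higher and 7 called.

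**Figure D3:**
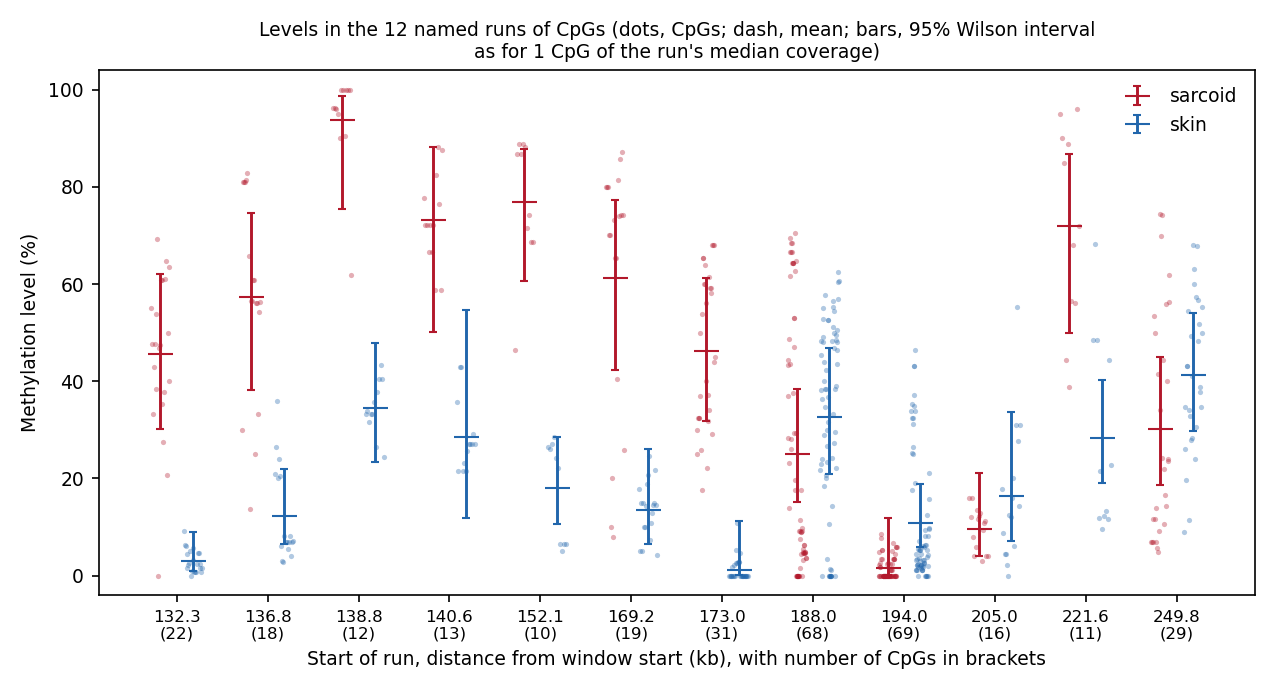
Methylation levels (percent) in the 12 named runs, each by its start in kb from the window start, with the number of CpGs in brackets; sarcoid is left and skin right. Dots are CpGs, dashes the means, and bars the Wilson 95% intervals as for 1 CpG of the run's median coverage. In 7 of the 8 runs with a gain the intervals are apart; in the 4 runs with a loss they overlap, and their CpGs spread widely.

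Runs with a gain and runs with little difference lay close together. Between the gains of the first stretch, the run from 58143764 to 58143941 had 12.2% in sarcoid and 8.74% in skin over 19 CpGs, a difference of 3.42 points with 0 CpGs called. Further right in the first stretch, 15 CpGs from 58177143 to 58177322 averaged 29.5% in sarcoid and 5.69% in skin. The 30 that followed to 58178754 averaged 1.38% in sarcoid and 5.73% in skin. Only 4 bp separated these groups, and the cut between them was placed at the measured drop in sarcoid. Coverage also changed, from 22 reads in sarcoid and 55 in skin at 58177322 to 52 and 67 at 58177326. The next CpG had 26 reads in sarcoid and 12 in skin. Whether the drop came from the change in reads was not tested. Higher sarcoid levels were found beyond it, with 1 CpG called higher in the run from 58184211 and 18.5 points from 58189255 to 58189928. The run from 58182555 to 58182741 was low in both libraries, with 3.87% in sarcoid and 6.26% in skin over 15 CpGs.

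The 4 runs with the largest mean loss held CpGs of unlike levels. All but the run from 58249769 were mixtures of unlike pieces. The run from 58188032 to 58191966, with 68 CpGs, averaged 25.1% in sarcoid (15.2 to 38.4) and 32.5% in skin (20.97 to 46.7). When neighbours had to lie within 500 bp it split into 4 pieces. The first, to 58188711, had 44.1% in sarcoid and 36.2% in skin over 13 CpGs, and the next, from 58189255 to 58189928, had 51.2% in sarcoid and 32.8% in skin over 19. Then came 10 CpGs from 58190586 to 58190661 with 0% in sarcoid and 0.263% in skin. In the last piece, from 58191508 to 58191966, 26 CpGs averaged 6.11% in sarcoid (2.37 to 14.9) and 43.0% in skin (29.9 to 57.05), a difference of -36.9 points. Of these 26, 25 were lower and 17 were called lower. Within 4 kb the region thus passed from a higher mean in sarcoid with overlapping intervals, over almost unmethylated in both, to lower in sarcoid with intervals apart.

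The same drop was seen at the start of the next run, from 58194014 to 58197139. Its first 16 CpGs, to 58194265, averaged 2.90% in sarcoid (0.670 to 11.7) and 32.3% in skin (24.0 to 42.0), all 16 lower and 10 called. A gap of 589 bp without a member lay before the next piece, where 37 CpGs from 58194854 to 58195132 had 0.528% in sarcoid and 3.35% in skin. Over the whole run of 69 CpGs the means were 1.57% in sarcoid and 10.7% in skin. No CpG of this run exceeded 8.62% in sarcoid.

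**Figure D4:**
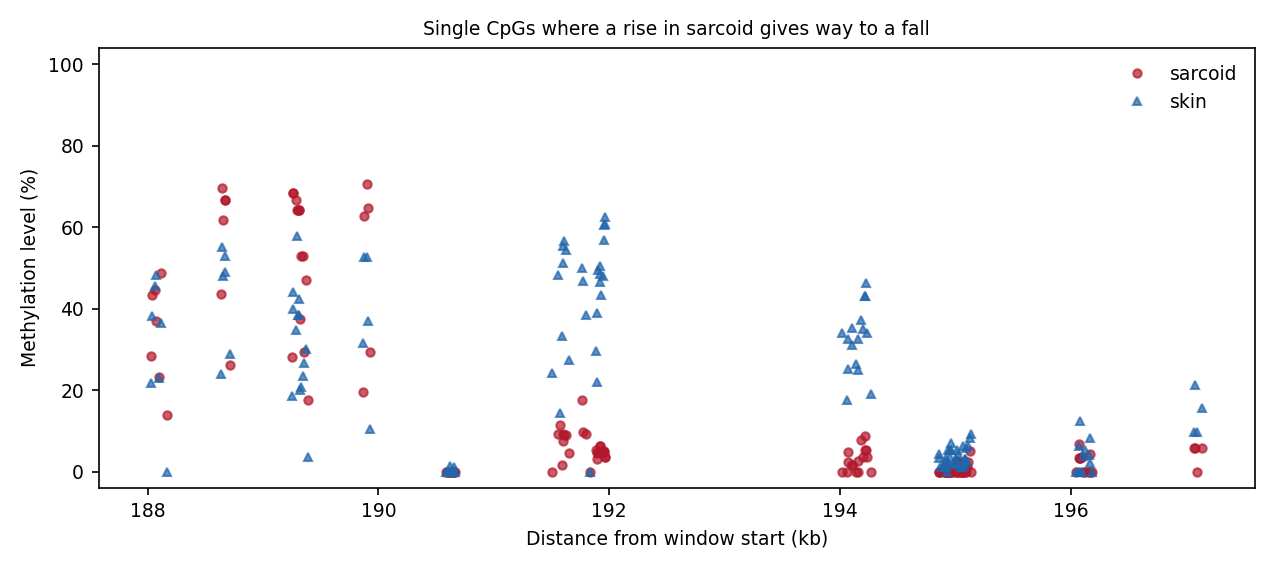
Methylation level (percent) of each member CpG in sarcoid (circles) and skin (triangles) over the 2 runs from 58188032 and 58194014, against distance from the window start in kb. Sarcoid lies above skin at 28 CpGs of the first run, all in its left pieces, both are near 0 in the cluster of 10 CpGs, and to its right skin reaches 62.5% while sarcoid stays at or below 17.6%.

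The run from 58249769 to 58249993, in the fourth stretch, averaged 30.2% in sarcoid (18.6 to 45.1) and 41.4% in skin (29.8 to 54.0) over 29 CpGs, with 10 higher, 19 lower and 4 called lower. A border, set by comparing 5 CpGs on either side, lay in it. The 5 CpGs from 58249871 to 58249905 had 55.4% in sarcoid and 51.2% in skin, and the 5 from 58249911 to 58249929 had 21.6% in sarcoid and 52.1% in skin. Sarcoid levels of neither side held along the run. Within the left group sarcoid was 24.2% at 58249905, and within the right group 44.3% at 58249911. The CpG just before 58249871 had 9.09% in sarcoid and 28.4% in skin. The CpG just after 58249929 had 55.8% in sarcoid and 51.7% in skin. From 58205020 to 58206914, the last of the 4 runs, 16 CpGs averaged 9.65% in sarcoid (4.10 to 21.1) and 16.4% in skin (7.10 to 33.6). Its loss lay in the 6 CpGs of the tile from 58206001, with 7.10% in sarcoid and 27.5% in skin.

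Of the named borders inside runs, set by comparing 5 CpGs on either side, the largest lay between 58169184 and 58169298. Sarcoid averaged 76% before it and 35.3% after it, and skin 11.6% and 14.8%. Each of the 5 CpGs on its left had only 10 reads in sarcoid, the lowest coverage of a member. On its right, sarcoid coverage went from 10 reads at 58169246 to 26 at 58169298. From 58213140 to 58213238 sarcoid averaged 48.8% before and 16.5% after a border, while skin had 20.5% and 20.6%. Coverage changed there too, from 22 reads in sarcoid and 54 in skin at 58213203 to 17 and 23 at 58213213. At both borders the 5 CpGs on the right had a lower sarcoid mean, and the skin mean was within 4 points on either side. Neither lower level held along the rest of its run. At the first border sarcoid was 10% at 58169246 and 65.4% at 58169298, both in the right group. At the second border sarcoid was 17.6% at 58213238 and 57.1% further right in the run. In the run from 58173038 the step went the other way, with 32.6% in sarcoid before and 61.7% after a border between 58173056 and 58173144, and 0.815% and 4.27% in skin. Further right in that run sarcoid levels of 22.2% to 68% followed. Over the window as a whole, differences were alike between close CpGs and less so with distance. The median gap between the differences of a pair was 4.33 points up to 20 bp apart, 7.55 points over 100 and up to 1000 bp apart, 16.0 points over 1000 and up to 5000 bp, and 22.1 points over 20000 and up to 100000 bp. Close pairs often share reads.

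In 1 kb tiles with at least 3 members, 23 of 80 (28.8%) were at least 15 points higher in sarcoid, against 6.37% of tiles in the genome, and 5 (6.25%) were at least 15 points lower, against 9.95%. Both libraries were at most 20% methylated in 40 tiles. Of 56 tiles with at most 20% in skin, 14 (25%) were at least 15 points higher, beside 3.05% of such tiles in the genome. The 6 tiles with the largest gain all lay in the first stretch, and 3 of them coincide with runs described above; the others began at 58174001, 58141001 and 58148001. The tile from 58174001 had 64.7% in sarcoid and 12.5% in skin over 4 CpGs, that from 58141001, the right part of the run from 58140597, 75.4% in sarcoid and 27.2% in skin over 6, and that from 58148001 73.9% in sarcoid and 26.2% in skin over 8. The 4 tiles with the largest loss began at 58191001, 58873001, 58206001 and 58771001. Of these, the tiles from 58873001, with 45.5% in sarcoid and 73.2% in skin over 4 CpGs, and from 58771001, with 9.61% in sarcoid and 26.3% in skin over 3, lay in the sparse part of the window.

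Single CpGs at both ends were taken from the 641 members with at least 20 reads in both libraries. The largest gain was at position 58138821, where 21 of 21 reads were methylated in sarcoid (Wilson interval 84.5 to 100%) and 14 of 53 in skin (26.4%, 16.4 to 39.6). Positions 58169366 and 58169342 followed, with 85.7% and 81.5% in sarcoid and 14.6% and 10.9% in skin. The largest losses lay close together, at 58191963, 58191966 and 58191954. At the first of these 1 of 28 reads was methylated in sarcoid (3.57%, 0.633 to 17.7) and 35 of 56 in skin (62.5%, 49.4 to 74.0).

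CpG density, counted as the CpGs listed per 1 kb tile in either library, was high in the window. Tiles with over 20 listed CpGs held 45.5% of members, against 27.6% of CpGs in the rest of the genome. In these dense tiles the mean was 18.4% in sarcoid and 11.6% in skin over 403 members, with 67 CpGs (16.6%) called higher and 31 (7.69%) of the window's 33 called lower, where such tiles of the rest of the genome had 0.607% called higher and 1.00% lower. Tiles with 11 to 20 listed CpGs had 24.0% in sarcoid and 13.5% in skin, with 40 (15.9%) called higher and 0 lower, beside 0.997% higher and 2.03% lower in the rest of the genome. Tiles with 6 to 10 had 42.2% in sarcoid and 29.1% in skin, and tiles with 5 or fewer had 35.8% in sarcoid and 29.7% in skin. The mean was thus higher in sarcoid in each of the 4 classes, and in the rest of the genome it was lower in sarcoid in each, with differences of -1.97 to -0.654 points.

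CpGs outside the members, which did not enter the choice of the window, gave a smaller difference. The files listed 1223 CpGs in the window. Of the 338 that were no members, 199 had at least 5 reads in both libraries but under 10 in one or both, 52 were listed in sarcoid only, 86 in skin only, and 1 had fewer reads. The 199 averaged 28.6% in sarcoid and 24.4% in skin, a difference of 4.18 points. In the first stretch 70 of them had 23.0% in sarcoid and 7.07% in skin, and in the third 22 had 23.4% in sarcoid and 8.61% in skin. In the second stretch, where members were lower in sarcoid, 17 such CpGs went the other way, with 12.9% in sarcoid and 5.72% in skin. The 18 of the fifth stretch also went against the small mean difference of its members, with 36.9% in sarcoid and 45.7% in skin. The 13 of the fourth went with its members, with 2.15% in sarcoid and 5.57% in skin. They come from the same libraries and are no replicate.

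The strands of a CpG gave the same direction. At the 322 members with at least 10 reads on both strands in both libraries, the plus strand had 24.3% in sarcoid and 19.1% in skin, and the minus strand 22.1% in sarcoid and 18.3% in skin. Strands lay at least 30 points apart at 10.6% of these CpGs in sarcoid and 6.52% in skin, against 13.3% in sarcoid and 13.2% in skin over the rest of the genome. The 276 of them with strands less than 30 points apart in both libraries differed by only 3.46 points. The second stretch gave 31.2% of this set, against 20.7% of members, and the differences within stretches moved too. The first stretch had 44.3% in sarcoid and 19.1% in skin over 90 CpGs, and the second 3.14% in sarcoid and 16.2% in skin over 86. In this set the means of the third stretch lay close together, with 8.51% in sarcoid and 6.02% in skin over 19 CpGs, and those of the fourth further apart than over all its members, with 17.6% in sarcoid and 28.2% in skin over 30. What each of these adds to the smaller difference was not tested.

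The neighbouring windows held fewer CpGs. From 57 Mb to the start of the window, 246 CpGs averaged 16.8% in sarcoid and 12.8% in skin, with 2 (0.813%) called higher and 1 (0.407%) lower. In the window that follows, 271 CpGs averaged 21.1% in sarcoid and 22.4% in skin, with 0 called higher and 5 (1.85%) lower. Over the genome 0.954% of CpGs were called higher and 1.89% lower. The rest of chromosome 4 had 41.5% in sarcoid and 42.3% in skin over 23063 CpGs, a difference of -0.776 points.

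Among 157 windows of 1 Mb with a CpG number within 20% of that of the window (712 to 1055), it ranked 1 from the top by mean difference, with 8.74 points. The other 156 had a median of -1.06 points and a range of -8.72 to 2.35. It also had the lowest mean in skin, 16.7% beside 17.7 to 79.1% in the others, while its sarcoid mean ranked 19 from the lowest. The standard deviation of the differences over CpGs was 24.8 points, against 7.23 to 21.3 in the others, and Pearson's r of the libraries across CpGs, which share depth and sequence context, was 0.604, against 0.758 to 0.967. The share of CpGs at least 25 points higher was 23.3%, with a maximum of 9.48% elsewhere, but the share at least 25 points lower, 5.99%, was near the median of 6.93%. Among all 1979 windows with at least 50 CpGs, whatever their number, it ranked 5 by mean difference. The 34 other windows of like CpG number with a skin mean under 30% differed by -3.38 to 2.13 points. Depth, which did not enter the choice, was not at an extreme: its log2 read ratio was -0.61, with a median of -0.50 and a range of -0.98 to -0.062 in the others. These ranks describe the values by which the window was picked, apart from depth.

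**Figure D5:**
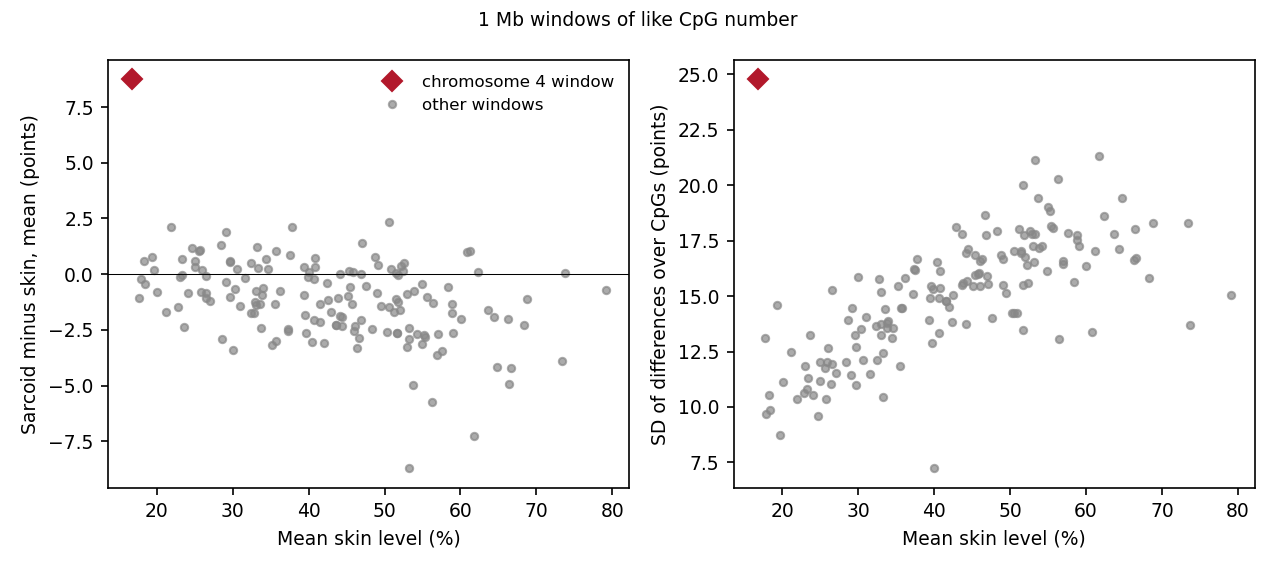
Mean difference (left) and standard deviation of differences over CpGs (right), in percentage points, against mean level in skin (percent) for the 157 windows of 1 Mb of like CpG number. The diamond is the chromosome 4 window, at 16.7% in skin, 8.74 points and 24.8 points; circles are the other windows, none of them above 2.35 points (left) or 21.3 points (right).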

How the data were processed

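The deposited files list cytosines of CpGs, each strand apart, with a read count (coverage) and the percent of reads with C and with T, per the file headers. The submitters' processing notes name FastQC, BSMAP and methylKit; versions, settings and the genome build are not given in the sources used here. Libraries were each run on 1 lane with 75 bp reads, per the labels' protocols. Few cytosines under 5 reads were listed (0.113% in sarcoid, 0.112% in skin).

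Methylated reads were coverage times percent of C, rounded; the product was further than 0.0005 of the coverage from a whole number at 0.543% of cytosines in sarcoid and 0.567% in skin. Strands were summed. Means weigh CpGs equally. No upper coverage limit was set. Fisher's exact test (two-sided, Benjamini-Hochberg over 877053 CpGs) compares these 2 libraries, not the conditions. Runs, tiles and CpGs were named by size of difference (8 and 4 runs of at least 10 members, 6 and 4 tiles, 3 CpGs each way), borders as the 6 widest, 1 per run, each within 2 kb. The window and these rules were chosen with earlier results of these data known. In simulated reads at 877053 CpGs, 36.8% of 10000 CpGs raised by 30 points and 75.0% of 10000 raised by 50 were called, with 23 calls among unchanged CpGs. Reads were drawn independently around 1 level shared by both libraries, and only CpGs of lower level were raised. PCR copies and differences between libraries were not simulated, so the 23 calls give no rate of false calls in these data. The authors' table of chromosome 1 was not used. Scripts ran in Python 3.11.15 with numba 0.67.0, NumPy 2.4.6, pandas 2.3.3 and SciPy 1.17.1, and plots in matplotlib 3.10.9.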

Additional observations from a re-analysis of the deposited data

Results flagged for a closer look

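The CpGs of the first stretch, from 58120001 to 58190000, that had at least 5 reads in both libraries but under 10 in one or both were in no comparison of members. Over these 70 CpGs the mean was 23.0% in sarcoid and 7.07% in skin, a difference of 15.9 points. They are listed because their level was above that of the control tissue in data outside the comparisons of members. The stretch was itself laid out from members that were higher in sarcoid in the same 2 libraries, so the place was chosen for its gain and these CpGs are no independent support. Over all 199 such CpGs of the window the difference was 4.18 points. In the second stretch, at 7.22 points, and in the fifth, at -8.77 points, they went against the mean of the members.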

How the results depend on the processing

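The window had a higher mean in sarcoid under every setting that gave a mean, but its size moved, and the median over CpGs was 0 points. The mean difference was 7.90 points at a minimum of 5 reads, 8.18 at 20 reads, 7.28 on the plus strand, 9.98 over tiles, and 3.46 at CpGs with both strands covered and less than 30 points apart. Settings chosen after seeing the data gave 7.52 points with each run of equal weight and 7.77 without the third stretch. CpGs called higher numbered 49 on the plus strand, 77 on the minus strand and 41 with both strands, and those called lower 10 and 20 on the single strands; fewer reads and CpGs entered these tests. At a limit of 40 points, which asks for larger differences of the same CpGs, 19 were called lower. Thinned to 10 reads, 0 were called higher and 0 lower by Fisher's exact test, with 89 higher and 18 lower at an unadjusted p under 0.05. With both strands, 10 tiles were at least 15 points higher and 12 steps had a higher mean, of 39 tiles and 21 steps left. Tiles at least 15 points lower numbered 8 at 5 reads and 3 on either strand, and 2 were at least 25 points lower. The rank stayed 1 among 449 windows within 50% of the CpG number and among 143 at 20 reads. With neighbours within 500 bp, the run from 58188032 held pieces of 7.86 and 18.5 points, and the run from 58205020 a piece of 1.38 points, against the sign of the whole run. Of 39 values of named runs and tiles under alternatives, 33 moved by less than a counting interval set as for 1 CpG of median coverage. Part of the 33 could not move, because the alternative kept the same CpGs. This held for runs without a gap over 500 bp and for items with 20 reads at every CpG. At 20 reads, the run from 58140597 and the tiles from 58141001 and 58873001 gave no value, with no CpG left. No paired analysis was possible because each tissue has 1 library. Depth limits single CpGs: at 10 reads no member was called.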
